A study of Mus musculus with 2 samples.

Results

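The antigen presentation and interferon-induced genes described here were 31 genes, taken by symbol from the 31053 genes of each count table. They fell into 10 genes of the MHC class I pathway, 17 interferon-induced genes and 4 MHC class II genes. Cells came from dispersed pancreatic islets of C57BL/6J mice, 13 weeks old, in 1 library from mice on HFD (a high-fat diet, used as a prediabetes model) and 1 library from mice on CD, an abbreviation that the labels do not spell out. The stated purpose of the series was to define subsets among α, β and δ cells. How long the diet lasted and how many mice went into each library are not given in the sources used here. Islets were freed with collagenase P, separated on a density gradient, picked by hand and dispersed with TrypLE, and RNA was counted at its 3′ end as unique molecular identifiers (UMIs) on the 10x platform.

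MHC class I molecules, made of a heavy chain and the light chain B2m, show peptides from inside a cell to CD8 T cells. The peptides are cut by the proteasome, whose subunits Psmb8 and Psmb9 are the interferon-inducible forms, and are carried into the endoplasmic reticulum by the transporter Tap1 and Tap2. MHC class II molecules show peptides from outside the cell to CD4 T cells and are made mainly by macrophages, dendritic cells and B cells. Type I interferon acts through a transcription factor complex that includes Stat2 and Irf9 and binds the interferon-stimulated response element (ISRE) in gene promoters, while interferon gamma acts through the gamma-activated site (GAS). Raised MHC class I on islet cells is a known feature of autoimmune diabetes. No interferon was given in this study, so "interferon-induced" names what the genes are known for and not a treatment.

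Promoters were available for 25 of the 31 members. The core of the ISRE, written GAAANNGAAA and searched on both strands in the 250 bases before the gene start, was present for 13 of these 25 members, against 3.46% of 27025 genes. It was present for 11 of 15 interferon-induced members, for 2 of 8 class I pathway members and for neither of the class II members with a promoter. A GAS, TTCNNNGAA, was present for Psmb8, Irf1, Igtp and Bst2, against 8.13% of genes. The windows below come from the RefSeq annotation of GRCm38.p6, and only windows with an ISRE core are shown. B2m and H2-T23 are the class I members with an ISRE core, and in beta cells they differed between the diets in opposite directions. The other windows belong to interferon-induced genes that were higher in HFD beta cells. Gbp3, Bst2 and Ddx60, not shown, had a core and were higher there too. Stat2 (log2 ratio 0.28), Igtp (−0.01) and Gbp2 (18 and 23 UMIs, too few for a ratio), not shown, had a core and were not called higher there. The windows shown thus do not tell how often a core goes with a higher level. Irf7, Oasl2 and H2-Q7 were also higher there, and their windows held no core. Each window is 250 bases, read 5′ to 3′ on the gene's strand, and ISRE cores on either strand are in capitals.
B2m, chr2:122147437-122147686, plus strand: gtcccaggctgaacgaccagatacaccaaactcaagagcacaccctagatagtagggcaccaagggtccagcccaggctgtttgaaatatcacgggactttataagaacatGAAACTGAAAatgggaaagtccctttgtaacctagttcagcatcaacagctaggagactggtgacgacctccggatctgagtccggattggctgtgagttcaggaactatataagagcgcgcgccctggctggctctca
H2-T23, chr17:36032702-36032951, minus strand: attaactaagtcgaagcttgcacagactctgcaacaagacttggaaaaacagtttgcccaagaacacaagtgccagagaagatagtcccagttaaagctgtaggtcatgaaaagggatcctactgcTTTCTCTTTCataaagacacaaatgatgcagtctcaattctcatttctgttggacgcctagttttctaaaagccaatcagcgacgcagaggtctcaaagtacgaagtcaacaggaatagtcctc
Ifit1, chr19:34640639-34640888, plus strand: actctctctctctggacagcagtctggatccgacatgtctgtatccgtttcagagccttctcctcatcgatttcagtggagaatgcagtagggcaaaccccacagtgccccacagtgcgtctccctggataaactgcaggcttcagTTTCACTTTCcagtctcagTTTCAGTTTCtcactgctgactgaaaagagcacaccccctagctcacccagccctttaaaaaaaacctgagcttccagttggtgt
Ifit3, chr19:34583279-34583528, plus strand: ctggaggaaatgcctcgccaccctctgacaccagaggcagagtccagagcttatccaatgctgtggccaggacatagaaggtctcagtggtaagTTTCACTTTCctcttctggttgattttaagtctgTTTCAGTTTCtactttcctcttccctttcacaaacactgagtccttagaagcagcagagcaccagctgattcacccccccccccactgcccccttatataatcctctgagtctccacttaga
Ifit3b, chr19:34607707-34607956, plus strand: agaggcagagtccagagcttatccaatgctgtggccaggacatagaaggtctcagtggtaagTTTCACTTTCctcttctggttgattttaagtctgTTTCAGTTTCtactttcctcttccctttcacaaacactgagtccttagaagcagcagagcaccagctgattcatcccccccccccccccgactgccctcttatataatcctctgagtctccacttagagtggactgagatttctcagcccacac
Isg15, chr4:156200819-156201068, minus strand: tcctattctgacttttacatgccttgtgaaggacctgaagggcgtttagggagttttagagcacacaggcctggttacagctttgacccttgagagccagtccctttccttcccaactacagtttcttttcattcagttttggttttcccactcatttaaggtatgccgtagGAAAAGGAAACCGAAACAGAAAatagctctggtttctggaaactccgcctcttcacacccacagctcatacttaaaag
Rsad2, chr12:26456453-26456702, minus strand: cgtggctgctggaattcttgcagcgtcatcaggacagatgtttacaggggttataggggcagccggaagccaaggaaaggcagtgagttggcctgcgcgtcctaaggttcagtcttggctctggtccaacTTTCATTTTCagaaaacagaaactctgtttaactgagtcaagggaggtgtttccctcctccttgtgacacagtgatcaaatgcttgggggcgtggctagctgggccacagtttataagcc

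Counted to the match's 5′ base, the core lay 139 bases before the RefSeq start of B2m, 124 before H2-T23, 120 before Rsad2, and 104 and 85 before Ifit1. GENCODE M21, used for the gene positions given here, starts H2-T23 further upstream, at base 36032855. By that annotation the H2-T23 core lies inside the gene. In Isg15, 3 cores overlapped, beginning 78, 72 and 66 bases before the start. Ifit3 and Ifit3b, neighbouring copies on chromosome 19, share an unbroken run of 169 bases in these windows that holds both of their cores. A match to these letters is a description of the window and no measure of binding. All class I heavy chain genes, the transporter and proteasome genes and the class II chain genes among the members lie in the MHC on chromosome 17 (GRCm38), from base 33996017 at H2-K1 to base 36032855 at H2-T23. B2m lies apart, at chr2:122147686-122153083.

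Cells with at least 1500 UMIs, at least 500 genes and at most 15% mitochondrial UMIs were kept, and 10898 HFD and 8919 CD cells remained after likely doublets were removed. The libraries held 271527648 UMIs (HFD) and 265836346 UMIs (CD) in all, and 26 kept barcodes occurred in both. Hormone shares gave 6562 HFD and 5913 CD beta cells, 1941 and 1246 alpha cells, 644 and 562 delta cells, and 488 and 310 PP cells. Clustering of the rest gave 463 and 320 endothelial-like, 171 and 130 macrophage-like, and 191 and 141 mesenchymal-like cells, besides smaller groups. Their own markers were present: the 9 endothelial markers summed to 20850 (HFD) and 20810 (CD) UMIs per 1000000 in endothelial-like cells, and the 10 macrophage markers to 26090 and 28020 in macrophage-like cells. Between 22 and 65 cells per class and library lay just under or just over a hormone threshold. Barcodes with 10 to 100 UMIs, taken as free RNA, gave the level that free RNA alone would bring to each class. Its estimated share of the UMIs was 7.24% and 8.96% in beta cells and 7.65% and 20.6% in alpha cells. That share was a median over hormone genes of other cell types and acinar enzyme genes with at least 50 free RNA UMIs. It used 4 genes in HFD and 8 in CD for beta and alpha cells, and 3 and 7 for delta and PP cells. The libraries thus rest on unlike gene sets, and the effect on values that use free RNA was not tested. A level below is counts per 1000000 after scaling the class sums (CPM). With 1 library per diet there is no test between diets, and the ranges in parentheses are 95% intervals for counting error only. The text calls a member higher or lower at a ratio of at least 1.5 with at least 50 UMIs over both libraries. A member can reach these UMIs through 1 library alone, which favours a call on that side. Members are not compared with each other in level, since 3′ counting differs between genes.

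The class I and interferon-induced members were higher in macrophage-like and endothelial-like cells than in beta cells, in both libraries, while of the 4 class II members none reached 2 times the beta level in both libraries of endothelial-like cells. Enough UMIs means in these comparisons at least 50 over the class and beta cells together in each library, which beta cells alone can supply. In endothelial-like cells 9 of 9 class I members and 16 of 17 interferon-induced members with enough UMIs were at least 2 times as high as in beta cells in both libraries, against 16% of all genes. In macrophage-like cells these counts were 8 of 8 and 13 of 14, against 13% of all genes; 32.4% of all genes were at least 2 times lower there and no member was. The exception in both was Ddx60, an RNA helicase related to the viral RNA sensors. In CD macrophage-like cells Ifit3b and Igtp had 2 and 6 UMIs and log2 intervals that held 0. In mesenchymal-like cells 2 of 8 class I members (B2m and Tap1) and 7 of 13 interferon-induced members were at least 2 times as high, against 10.9% of all genes. Tap1 had 6 and 5 UMIs there and log2 intervals that held 0, as did those of Irf9 and Ifit3b in CD.

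**Figure D1:**
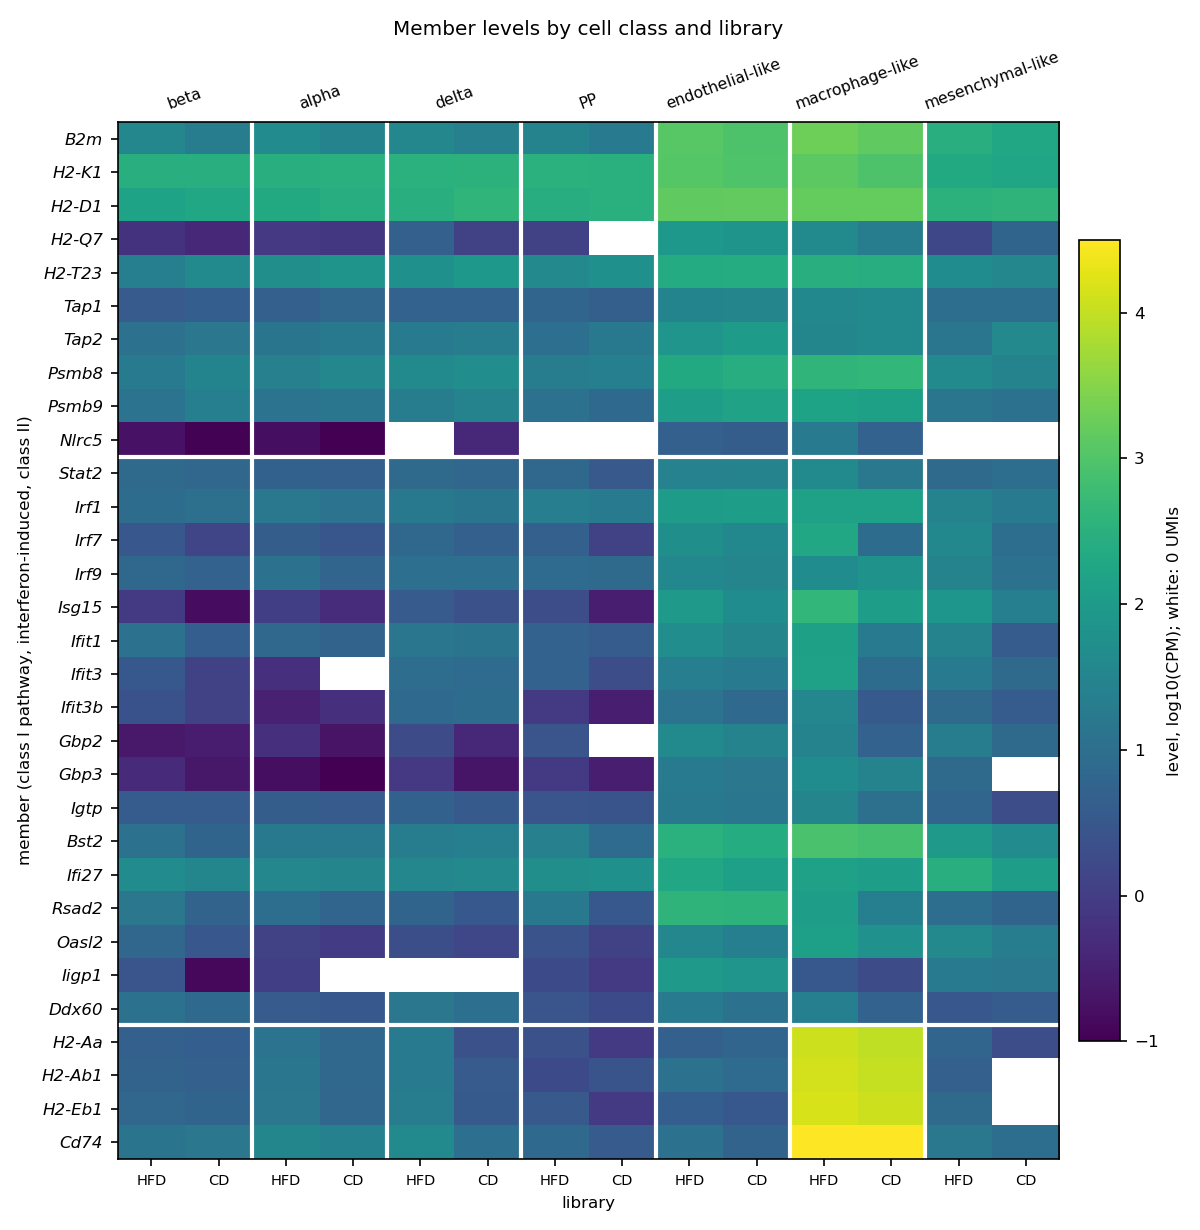
Level of each of the 31 members (rows: class I pathway, interferon-induced, class II) in 7 cell classes, with HFD left of CD, as log10 CPM on the colour scale; white cells had 0 UMIs. The class I and interferon-induced rows are brightest in endothelial-like and macrophage-like cells, and the class II rows in macrophage-like cells.

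B2m, the class I light chain, was at 1940 CPM (HFD) and 1467 CPM (CD) in macrophage-like cells and at 1185 and 913 in endothelial-like cells, against 35.8 and 20.8 in beta cells. Irf1, a transcription factor that switches on class I genes, was 12.7 times (HFD) and 11.3 times (CD) as high in endothelial-like as in beta cells. Gbp2, a guanylate-binding GTPase, reached 41.6 and 29.2 CPM in endothelial-like cells and did not exceed the free RNA level in beta cells. Rsad2, an antiviral enzyme, was at 374 and 366 CPM in endothelial-like cells and at 115 and 23.3 in macrophage-like cells. The heavy chain genes spanned less: H2-K1 was 3.73 and 3.30 times, and H2-D1 9.12 and 7.90 times, as high in endothelial-like as in beta cells.

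Among the endocrine classes the levels lay closer together. Of 8 class I members with enough UMIs none was 2 times higher or lower in alpha than in beta cells in both libraries, against 6.65% of all genes higher and 10.1% lower. The same held for PP cells, where 4.99% of all genes were higher and 10.8% lower. In delta cells H2-T23, a non-classical heavy chain whose product is a ligand of NK cell receptors, was 2.41 (HFD) and 2.02 (CD) times as high as in beta cells, against 6.45% of all genes at least 2 times higher. Irf7, Ifit3 and Ifit3b were also higher in delta cells, 3 of 13 interferon-induced members with enough UMIs. Irf7, the factor that amplifies type I interferon responses, was 2.30 and 3.38 times as high, and Ifit3, which like Ifit3b and Ifit1 belongs to a family that limits viral RNA, was 2.82 and 6.86 times as high. Oasl2, of the 2′-5′ oligoadenylate synthetase family, was lower than in beta cells in alpha cells (0.183 and 0.284 times), delta cells (0.321 and 0.465 times, against 8.23% of all genes lower) and PP cells (0.387 and 0.373 times). Ddx60 was lower in alpha (47 and 33 UMIs) and PP cells (10 and 6), Ifit3 in alpha cells (7 and 0) and Ifit3b in PP cells (3 and 1). The log2 intervals of Ifit3b in PP cells held 0. Oasl2 had 15 and 9 UMIs in alpha, 8 and 7 in delta and 9 and 4 in PP cells. These members had enough UMIs only through the beta cells, which favours a lower call. Of 13 interferon-induced members with enough UMIs, 3 were lower in alpha, 1 in delta and 3 in PP cells. Of all genes 10.1%, 8.23% and 10.8% were lower. These endocrine comparisons depend on the scaling. H2-T23 in delta cells did not reach 2 times when scaled without hormone genes or with classes from markers (0 class I members higher). On total UMIs 8 of 8 class I and 11 of 13 interferon-induced members in delta cells were at least 2 times as high as in beta cells, against 59.5% of all genes on that scaling.

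Between the diets, beta cells showed opposite pictures for the light chain and for most of the rest of the class I pathway. Of 9 class I members with enough UMIs, B2m and H2-Q7 were higher in HFD beta cells, against 8.21% of 13608 genes, and H2-T23, Psmb8 and Psmb9 were lower, against 5.25%. The median log2 ratio of the 9 was −0.33, beside 0.03 for all genes. Summed over the 10 members, the level was 559 CPM in HFD and 625 CPM in CD beta cells.

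B2m had 2739 UMIs in HFD and 1769 UMIs in CD beta cells, at 35.8 and 20.8 CPM, so that the log2 ratio was 0.78 (0.70 to 0.87). Free RNA alone would bring 12.7 and 12.5 CPM of it, and with free RNA subtracted the log2 ratio was 1.47. H2-Q7, a non-classical heavy chain, had 50 and 34 UMIs and a log2 ratio of 0.71 (0.05 to 1.38), with the CD level at or under that of free RNA; without the 47 HFD and 2 CD cells described further on it was 0.46 (−0.23 to 1.15), under 1.5 times. The classical heavy chains, which present peptides to CD8 T cells, were not called. H2-K1 was at 299 and 293 CPM, a log2 ratio of 0.03 (−0.06 on total UMIs, where the median of all genes moved from 0.03 to −0.07), and H2-D1 at 155 and 194 CPM, its log2 ratio being −0.33 (−0.37 to −0.30).

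H2-T23 had 1845 UMIs in HFD and 3567 in CD beta cells, at 24.1 and 42 CPM, and its log2 ratio was −0.80 (−0.88 to −0.72). Part of its 3′ end is not unique: 38.1% of the 50-base words in its last 500 bases occur in other transcripts, so its counts are uncertain. The immunoproteasome subunits were lower by similar amounts. Psmb8 was at 17.2 and 30.6 CPM, its log2 ratio being −0.83 (−0.93 to −0.74), and Psmb9 at 12.7 and 23.8 CPM, with −0.91 (−1.02 to −0.80). The peptide transporter was lower by less than 1.5 times, with Tap1 at 3.74 and 4.51 CPM (log2 ratio −0.27) and Tap2 at 11.3 and 15.4 CPM (log2 ratio −0.44). Nlrc5, the transactivator of class I genes, had 14 and 9 UMIs, too few for a ratio.

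Other genes of class I assembly and peptide supply were set beside the members. Of 12 with enough UMIs in beta cells 3 were above a ratio of 1, against 53.1% of all genes, and none was called higher, against 8.21%, or lower, against 5.25%. Psmb10, the remaining immunoproteasome subunit, had a log2 ratio of −0.52, and the proteasome activator subunits Psme1 and Psme2 had −0.53 and −0.49. The chaperones Canx and Calr, the most counted of the group, had 0.30 and 0.16.

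The interferon-induced members were higher in HFD beta cells as a group. Of 16 with enough UMIs, 14 were above a ratio of 1, against 53.1% of all genes, 11 were called higher, against 8.21%, and none was called lower, against 5.25%. Their median log2 ratio was 1.05. Summed over the 17 members, the level was 143 CPM in HFD and 91.9 CPM in CD beta cells. Isg15, Gbp2, Gbp3 and Iigp1 were at or under the free RNA level in CD beta cells, and Isg15 and Gbp2 in HFD beta cells too.

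Among the transcription factors, Irf7 was higher, with 240 UMIs in HFD and 120 in CD beta cells and a log2 ratio of 1.15 (0.83 to 1.48). Stat2 (595 and 543 UMIs, log2 ratio 0.28) and its partner Irf9 (560 and 462 UMIs, 0.43) were above a ratio of 1 but not called. Irf1 was the only one with an interval below 0, at 674 and 922 UMIs and a log2 ratio of −0.30 (−0.45 to −0.16).

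Among the antiviral effectors, Rsad2 had 1157 UMIs in HFD and 474 in CD beta cells, at 15.1 and 5.58 CPM, a log2 ratio of 1.44. Ifit1 had 903 and 376 UMIs, a log2 ratio of 1.42 (1.24 to 1.59), and Ifit3 had 253 and 103, a log2 ratio of 1.45 (1.11 to 1.79). Ifit3b had 184 and 98 UMIs and a log2 ratio of 1.06. Of the 50-base words in the last 500 bases of Ifit3, 14.9% also occur in Ifit3b, so reads can move between the pair. Isg15, a ubiquitin-like modifier, had 66 and 13 UMIs and a log2 ratio of 2.50 (1.62 to 3.48). Oasl2 had 509 and 266 UMIs (1.09), Ddx60 898 and 641 (0.64), and Bst2, the protein tethering budding virus to cells, 870 and 505 (0.94). Ifi27, the most counted member of the list, had 3474 and 2893 UMIs and a log2 ratio of 0.42, below the 1.5 times.

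Among the interferon-inducible GTPases, Iigp1 had 212 UMIs in HFD and 11 in CD beta cells, a log2 ratio of 4.42 (3.55 to 5.44). With no doublets removed its log2 ratio was 3.53. Gbp3 had 35 and 19 UMIs and a log2 ratio of 1.03 (0.19 to 1.92). Igtp, of the same family as Iigp1, was at 3.97 and 3.99 CPM, a log2 ratio of −0.01, and Gbp2 had 18 and 23 UMIs, too few for a ratio. The beta cells also held macrophage markers at 44.7 (HFD) and 31.1 (CD) UMIs per 1000000, with none of the 10 at 0, and endothelial markers at 18.9 and 7.55, and the part of these in the differences above was not tested.

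**Figure D2:**
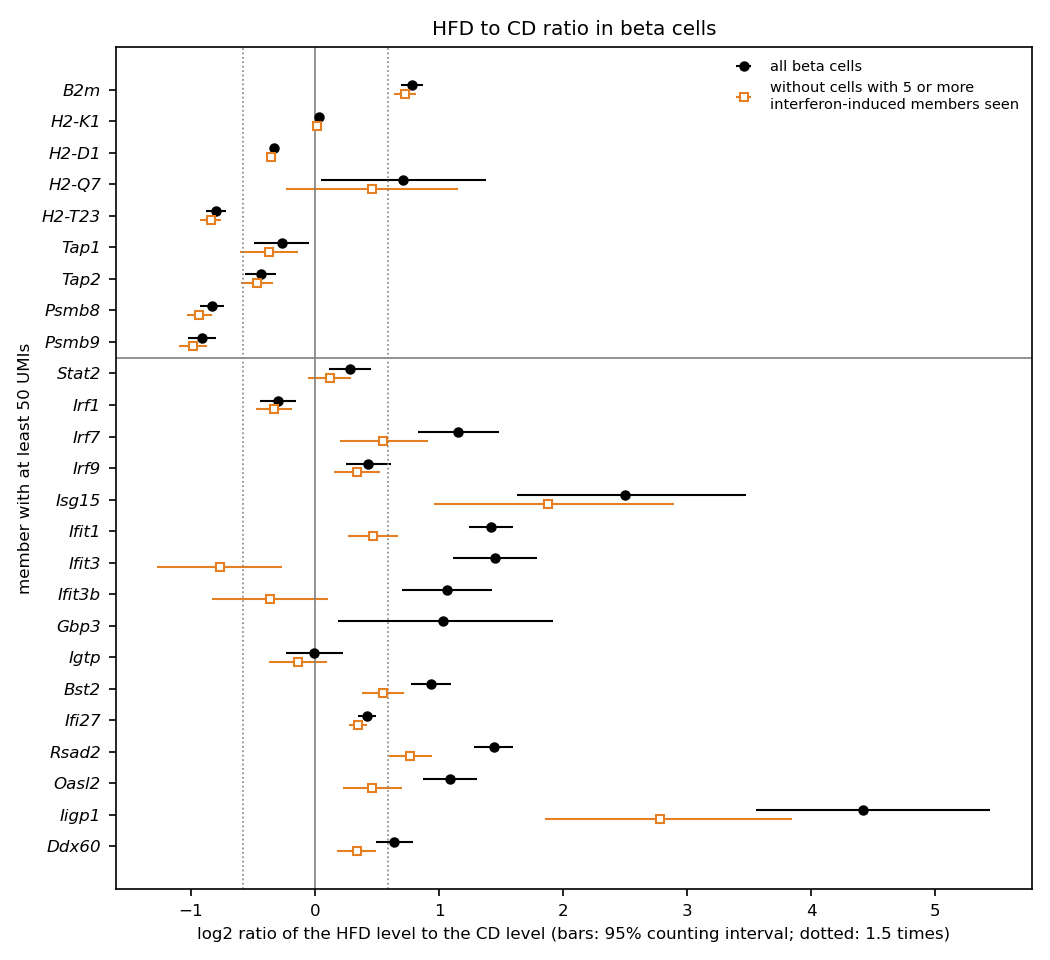
Log2 ratio of the HFD to the CD level in beta cells for each class I pathway member (above the line) and interferon-induced member (below it) with at least 50 UMIs; bars are 95% counting intervals, dotted lines mark 1.5 times, filled circles are all beta cells, and open squares leave out the beta cells with 5 or more interferon-induced members seen. B2m stands at 0.78 and Psmb9 at −0.91 with all cells. Ifit3 stands at 1.45 with all cells and at −0.76 without the cells left out, which were chosen by the interferon-induced members themselves.

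The interferon-induced difference was carried unevenly by the beta cells. To compare cells of different depth, each beta cell with at least 10000 UMIs was thinned to 10000, leaving 6048 HFD and 5197 CD cells, and the interferon-induced members with a UMI were counted in it. No member was seen in 64.4% of HFD and 65.5% of CD cells, and 1 member in 27.7% and 28.7%. At 5 or more members, a threshold set after the counts were seen, there were 47 HFD cells (0.777%, 0.572 to 1.03) and 2 CD cells (0.0385%, 0.00466 to 0.139). At 3 or 4 members there were 75 and 40 cells. The most members in a cell was 12 in HFD and 6 in CD.

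At 1500 UMIs per cell, with every beta cell included, 23 of 6562 HFD cells (0.351%) showed 3 or more members, against 0 of 5913 CD cells, which by 3 counts of 5913 allows a share of up to 0.0507%. With no thinning 9.54% of HFD and 11.0% of CD cells showed 3 or more, while the median cell had 23644 (HFD) and 26151 (CD) UMIs. In alpha cells 3 of 1941 HFD and 0 of 1246 CD cells showed 3 or more at 1500 UMIs, in delta cells 3 of 644 and 2 of 562, and in PP cells 1 of 488 and 0 of 310. In endothelial-like cells the share was 31.1% in HFD and 26.9% in CD.

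**Figure D3:**
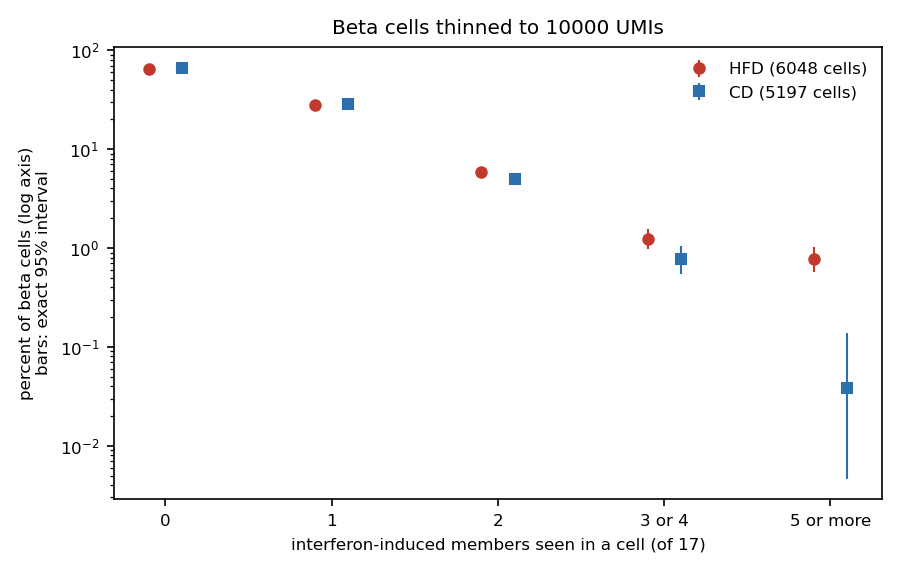
Percent of beta cells (log axis) by the number of the 17 interferon-induced members seen after thinning to 10000 UMIs, for HFD and CD; bars are exact 95% binomial intervals. The libraries lie together at 0 members (64.4% and 65.5%) and apart at 5 or more (0.777% and 0.0385%).

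The 47 HFD cells were 0.716% of HFD beta cells and held 21.4% of the interferon-induced UMIs of the class, 2340 of 10952. They were chosen by these genes, so their share, and the ratios of these genes without them, are a description. It was 79.1% for Ifit3 (200 of 253 UMIs), 67.9% for Iigp1, 63.0% for Ifit3b and 48.2% for Ifit1. It was 37.4% for Rsad2 and 25.1% for Bst2, and only 4.81% for Ifi27 and 2.23% for Irf1. Without the 47 HFD and the 2 CD cells, 11 of 15 interferon-induced members were above a ratio of 1. Their median log2 ratio was 0.35, beside 0.01 for all genes. Iigp1 (2.78), Isg15 (1.88) and Rsad2 (0.77) were called higher and Ifit3 was called lower. The shares of all genes were taken with those cells in: 53.1% above a ratio of 1, 8.21% called higher and 5.25% lower. Leaving out cells chosen by these genes took out 200 of 253 HFD but 3 of 103 CD UMIs of Ifit3. Its lower call thus depends on how the cells were chosen. Without those cells Ifit3 had 53 HFD and 100 CD UMIs, a log2 ratio of −0.76 (−1.27 to −0.27). Ifit3b had 68 and 97 UMIs, a log2 ratio of −0.36. B2m at 0.72 and Psmb8 at −0.93 moved little.

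The members were seen together in the same HFD cells. At 10000 UMIs Ifit1 was seen in 158 of 6048 HFD and 117 of 5197 CD beta cells. In HFD, Ifit3 was seen in 20.3% of the cells with Ifit1 and 0.238% of those without, Oasl2 in 28.5% and 1.51%, and Iigp1 in 15.8% and 0.272%. In CD, Ifit3 was seen in 0 of the 117 cells with Ifit1 and 0.551% of those without, and Oasl2 in 0.855% and 1.42%. Rsad2 was seen in 26.6% and 3.99% in HFD and in 6.84% and 2.42% in CD. These are shares of cells in 1 library each and are given as a description.

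The class I pathway, which did not enter the choice of these cells, was higher in them. The 10 class I members summed to 666 UMIs per 100 cells (594 to 744) in the 47 HFD cells with 5 or more interferon-induced members, against 247 (242 to 252) in the 3893 HFD cells with none. B2m was at 97.9 per 100 cells against 13.5, H2-T23 at 44.7 against 10.4, and Tap1 at 17 against 1.52. Psmb8 was at 55.3 against 6.60 and Psmb9 at 36.2 against 5.42. The classical heavy chains differed less, with H2-K1 at 230 against 133 and H2-D1 at 164 against 71.3.

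The same cells held insulin and few macrophage transcripts. Endothelial markers were not counted in these cells, so a part of endothelial-like RNA in them was not tested. Ins2 was at 448600 UMIs per 100 cells in the 47 cells against 461800 in the HFD cells with none, and the summed macrophage markers at 25.5 (13.2 to 44.6) against 41.5. Class II genes had 3 UMIs over the 47 cells. In HFD cells with 3 or 4 members B2m was at 49.3 per 100 cells (34.7 to 68.0). In the 40 CD cells with 3 or 4 it was at 2.5 (0.06 to 13.9), from 1 UMI. H2-K1 and H2-D1 were at 220 and 129 in those HFD cells, against 180 and 135 in those CD cells. Among cells with no member seen, B2m, H2-D1, H2-T23, Tap1, Tap2, Psmb8 and Psmb9 differed on the same side as in the whole class. H2-D1 was at 71.3 in HFD and 95.6 in CD, Tap1 at 1.52 and 1.91, and Tap2 at 4.91 and 7.23. B2m was at 13.5 in HFD and 9.40 in CD, H2-T23 at 10.4 and 20.4, Psmb8 at 6.60 and 14, and Psmb9 at 5.42 and 10.9. H2-Q7, at 0.128 and 0.294 (5 and 10 UMIs), was on the opposite side. H2-K1, at 133 and 141, was on the opposite side to its scaled ratio in the whole class. These counts are at equal total UMIs per cell, and on total UMIs the whole-class ratio of H2-K1 was on the same side.

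**Figure D4:**
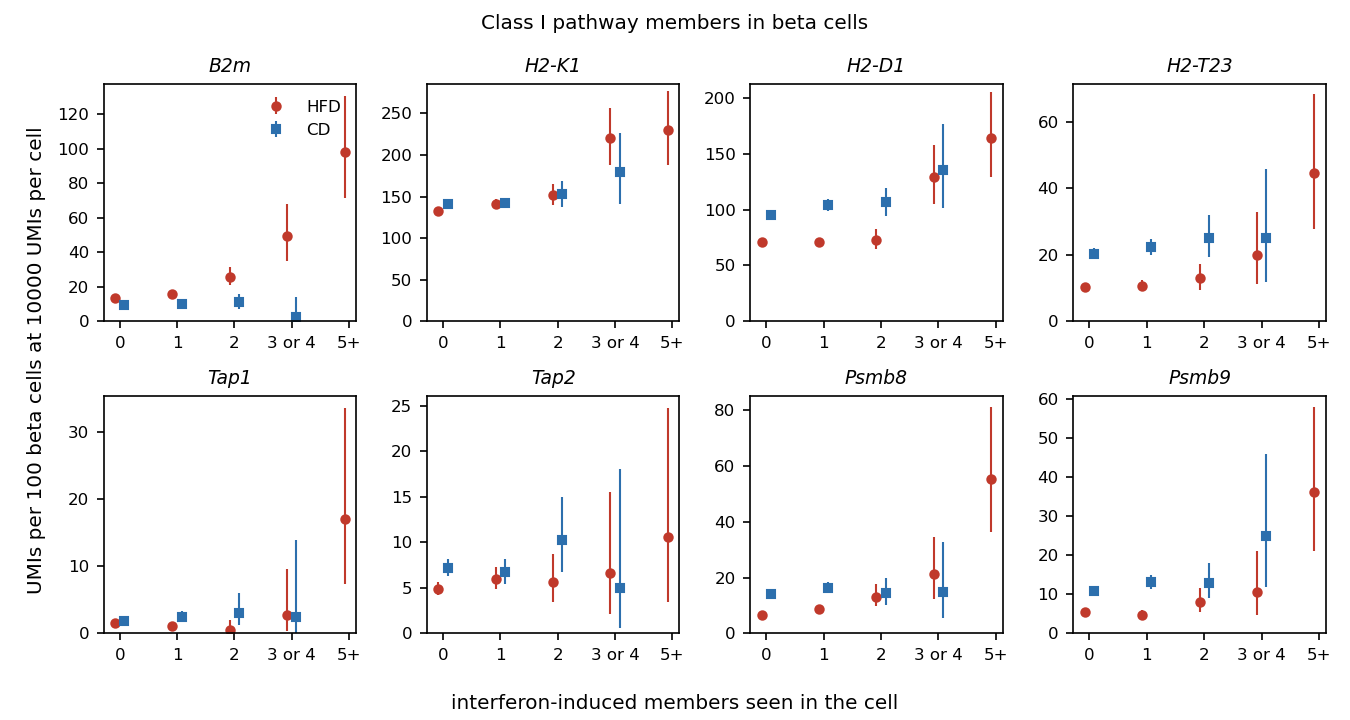
UMIs per 100 beta cells of 8 class I pathway members by the number of interferon-induced members seen in the cell, at 10000 UMIs per cell, for HFD (left of each pair) and CD; bars are 95% counting intervals, and groups under 20 cells are left out. B2m reaches 97.9 in HFD cells with 5 or more members, and at 0 members Psmb8 and Psmb9 are lower in HFD than in CD.

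In the 6 other classes plotted the class I light chain was on the same side as in beta cells. The log2 ratio of B2m was 0.60 in alpha, 0.50 in delta, 0.59 in PP, 0.38 in endothelial-like, 0.40 in macrophage-like and 0.47 in mesenchymal-like cells, and every interval lay above 0. H2-T23 was on the lower side in alpha (−0.43), delta (−0.54) and PP cells (−0.63), and at −0.13 in endothelial-like and 0.09 in macrophage-like cells, whose intervals held 0. Psmb8 had −0.49 in alpha and −0.29 in endothelial-like cells, with intervals below 0, and −0.08 (−0.35 to 0.18) in macrophage-like cells. The median over the measured class I members was −0.31 in alpha, −0.28 in delta, −0.26 in PP, −0.12 in endothelial-like, 0.14 in macrophage-like and 0.30 in mesenchymal-like cells.

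Few class I members passed 1.5 times outside beta cells. B2m was called higher in alpha cells, against 4.98% of all genes, and in PP cells, against 5.08%; in PP cells it was at 28.6 and 19.0 CPM, where free RNA alone would bring 7.88 and 18.6, and without 1 HFD cell its log2 ratio was 0.50 (0.03 to 0.98), under 1.5 times. In alpha cells 3.87% of all genes were lower and no class I member was. H2-T23 and Tap2 were called lower in PP cells, against 4.35%. None was called in delta, endothelial-like, macrophage-like or mesenchymal-like cells, where 5.11%, 2.7%, 4.9% and 6.8% of all genes were lower. H2-K1 had a log2 ratio of 0.52 (0.36 to 0.68) in macrophage-like cells and of −0.10 in alpha cells, where it was 0.018 with free RNA subtracted, a step that moved the median of all genes from −0.02 to 0.13. In the small ductal-like group of 52 HFD and 20 CD cells, all 5 measured class I members were called lower in HFD, against 6.88% of 3095 genes. They included B2m, which had 119 UMIs in HFD and 204 in CD and a log2 ratio of −1.31 (−1.65 to −0.98), the opposite side to the classes above.

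**Figure D5:**
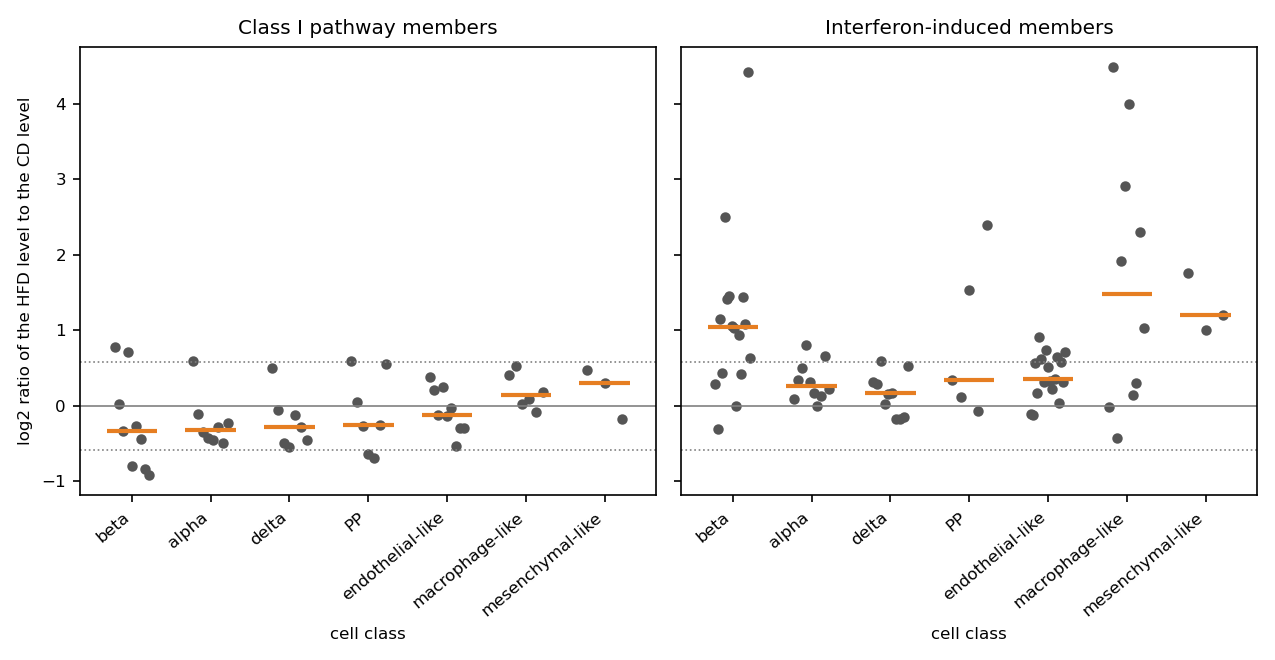
Log2 ratio of the HFD to the CD level for each measured class I pathway member (left) and interferon-induced member (right) by cell class; each point is a member, the orange line is their median, and dotted lines mark 1.5 times. The interferon-induced median is 1.48 in macrophage-like, 1.2 in mesenchymal-like, 1.05 in beta and 0.16 in delta cells, each over the members measured in that class.

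Among the 7 classes plotted, the median ratio of the interferon-induced members was largest in macrophage-like cells, at 1.48 on the log2 scale. The medians rest on unlike sets, with 10 members measured in macrophage-like, 16 in beta and 3 in mesenchymal-like cells, and their order was not tested. Irf7, Ifit3, Ifit1 and Rsad2 had enough UMIs in macrophage-like cells only through HFD, where they were high. That favours higher calls and a higher median. At 1500 UMIs per cell the median was 0.34 in macrophage-like cells (3 members measured) and 0.66 in beta cells (8 measured). The summed level of the interferon-induced members in macrophage-like cells was 2533 CPM in HFD and 1386 CPM in CD. Of 10 with enough UMIs, 6 were higher in HFD, against 12.2% of all genes, and none was lower, against 4.9%. Irf7 had 120 UMIs in HFD and 5 in CD, a log2 ratio of 4.48 (3.22 to 6.13). Ifit3 had 86 and 5 UMIs (4.0), Ifit1 81 and 10 (2.91), Rsad2 69 and 13 (2.30), Isg15 261 and 64 (1.92) and Oasl2 75 and 34 (1.04). Bst2 (0.15), Ifi27 (0.30) and Irf1 (−0.02) were near 0, and Irf9 had 28 and 35 UMIs (−0.43). A few cells carried much of this: Irf7 was seen in 26 of 171 HFD and 5 of 130 CD cells, and 5 HFD cells held 61.7% of its HFD UMIs. At 1500 UMIs per cell 3 or more interferon-induced members were seen in 25.1% (18.8 to 32.3) of HFD and 13.1% (7.81 to 20.1) of CD macrophage-like cells.

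In endothelial-like cells the differences spread over the list. Of 17 members 15 were above a ratio of 1, against 58.5% of all genes, and 5 were called higher, against 7.98%. Isg15 had 244 UMIs in HFD and 102 in CD, a log2 ratio of 0.92 (0.58 to 1.26), Ifi27 had 540 and 272 (0.65) and Ifit1 133 and 68 (0.63). Ddx60 (0.72) and Ifit3b (0.74) were called with intervals that held 0. Rsad2, with 1006 and 776 UMIs, had a log2 ratio of 0.03, against 1.44 in beta cells, and Iigp1, with 252 and 159, had 0.32, against 4.42 in beta cells. The differences between these classes were not tested.

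In mesenchymal-like cells 3 members had enough UMIs and all 3 were above a ratio of 1, against 54.1% of all genes, and called higher, against 10.2%. Ifi27 had 176 UMIs in HFD and 62 in CD (1.2), Isg15 50 and 12 (1.76), and Bst2 57 and 23 (1.01). In this class 65.4% of HFD and 44.7% of CD cells showed at least 1 interferon-induced member at 1500 UMIs.

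In alpha, delta and PP cells 1 or 2 interferon-induced members were called per class. In alpha cells 10 of 10 measured interferon-induced members were above a ratio of 1, against 48% of all genes, and Irf9 (137 and 64 UMIs, 0.81) and Rsad2 (123 and 64 UMIs, 0.65) were called higher, against 4.98%. Ifit1 was at 0.31 (−0.18 to 0.82) there, and Irf1 at 0.35 (0.01 to 0.68). In delta cells 7 of 10 were above a ratio of 1, against 47%, and Irf7 alone was called, against 6.18%, with 27 and 23 UMIs (0.59, −0.27 to 1.46). In PP cells 4 of 5 were above a ratio of 1, against 47.6%, and 2 were called higher, against 5.08%. Bst2 had 86 UMIs in HFD and 29 in CD PP cells (1.54), and Rsad2 59 and 11 (2.39). Of the 59 Rsad2 UMIs 45 came from 1 HFD cell with 14 of the 17 members, and without that cell the log2 ratio was 0.32 for Rsad2 (−0.93 to 1.60) and 1.5 for Bst2.

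Among the 7 classes plotted, the class II genes were highest in macrophage-like cells. Cd74, the invariant chain that guides class II molecules, was at 34720 CPM in HFD and 32650 CPM in CD macrophage-like cells, and the chain genes H2-Aa, H2-Ab1 and H2-Eb1 lay between 12200 and 14830 CPM in HFD and between 9481 and 12110 in CD. All 4 were slightly above a ratio of 1, with a log2 ratio of 0.22 for the sum. In beta cells all 4 were at or under the free RNA level in both libraries, with Cd74 at 13.0 and 15.3 CPM against 26.5 and 24 expected from free RNA. The same held for PP and mesenchymal-like cells, and for alpha and delta cells in the CD library only. Outside these classes, an unnamed cluster of 37 HFD and 29 CD cells led by Cd52, Lyz2 and Tyrobp held Cd74 at 11190 and 9940 CPM. In CD T cell-like cells Cd74 was at 502 CPM, and all UMIs of the chain genes came from 1 cell of 20.

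Most class II UMIs of beta, alpha and delta cells came from a few cells. In beta cells 9 HFD and 9 CD cells with at least 10 class II UMIs held 58.8% and 63.0% of them, and 7 and 8 of these cells had at least 3 macrophage markers. In alpha cells 3 cells in each library held 79.2% and 83.8%, and in delta cells 1 cell in each held 79.8% and 55.8%. The log2 ratio of the class II sum was 2.31 in delta cells, with 4 of 4 members called higher, against 6.18% of all genes, and 1.18 without those cells. It was 0.71 in alpha cells, with 3 of 4 called, against 4.98%, and 1.07 without those cells. Without those cells 74 HFD and 42 CD class II UMIs were left in delta cells, and 192 and 75 in alpha cells. In CD all 4 members were at or under the free RNA level in both classes. The ratios had no free RNA subtracted, and its part in them was not tested. Macrophage markers moved with these values, at 162 and 89.7 UMIs per 1000000 in delta cells and at 111 and 76.1 in alpha cells, and their part in the result was not tested. Of the class II partner genes H2-DMb1, which helps load peptides, was lower in HFD beta cells, with 17 and 44 UMIs (−1.22).

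Other genes known to respond to interferon were set beside the members. Of 21 with enough UMIs in beta cells 17 were above a ratio of 1, against 53.1% of all genes, 6 were called higher, against 8.21%, and none lower, against 5.25%. Cxcl10, a chemokine for T cells, had 107 UMIs in HFD and 17 in CD beta cells (2.81), and 5 HFD cells held 48.6% of its HFD UMIs. Oas2 had 45 and 13 UMIs (1.94), Rtp4 258 and 131 (1.13) and Ifitm3, which hinders virus entry, 315 and 165 (1.08). Irgm2 (0.81) and Ifi27l2a (0.70) were the others, while Ifitm2 was at 0.02 and Lgals3bp, with the most UMIs of the group, at 0.55.

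The inhibitor Usp18, which removes Isg15 from proteins, had 1029 and 663 UMIs in HFD and CD beta cells (0.79), the only one called of 5 inhibitors, against the same shares. The nucleic acid sensor Ifih1 was at −0.02 in beta cells and was higher in HFD alpha cells, with 517 and 236 UMIs (0.84). In alpha cells Lgals3bp (0.96) and Ifitm3 (1.23) were higher, and Cxcl10 was lower with 19 and 56 UMIs (−1.85), of which 50 CD UMIs came from 1 cell. In endothelial-like cells 20 of 21 other interferon-responsive genes were above a ratio of 1, against 58.5% of all genes, and Irgm2 (1.48) and the class I chaperone Calr (1.06) were higher.

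In macrophage-like cells 13 of 15 other interferon-responsive genes were above a ratio of 1, against 56.8% of all genes, and 10 were called higher, against 12.2%. Cxcl10 had 875 UMIs in HFD and 381 in CD (1.09) and was seen in 54.4% and 35.4% of cells. Cxcl9, a chemokine known for its induction by interferon gamma and singled out after its values were seen, had 142 and 2 UMIs (6.04, 4.16 to 9.10), in 10 HFD cells and 1 CD cell, with 86.6% of the HFD UMIs in 5 cells. Of the interferon genes listed, only Ifnb1 had enough UMIs in these cells, 55 in HFD and 50 in CD (0.03), and it had 2 and 1 UMIs in beta cells. Ifng had 10 and 7 UMIs in the 19 HFD and 20 CD T cell-like cells.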

How the data were processed

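The authors deposited UMI counts per gene and barcode for each library, made with Cell Ranger 6.0.1 on mm10 per the submitters' processing notes; the file headers give software version 3.0.2, and the annotation release is not stated in the labels or headers. All computation started from these deposited counts, with Python 3.11.15, scanpy 1.11.5, R 4.3.3 and edgeR 4.0.16. Cells with at least 1500 UMIs, at least 500 genes and at most 15% mitochondrial UMIs were kept. Scrublet's highest scores were removed at 0.8% per 1000 kept barcodes. Hormone shares of the UMIs defined beta (Ins1 and Ins2, 30%), alpha (Gcg, 10%), delta (Sst, 3%) and PP cells (Ppy, 20%). The rest were clustered (Leiden, resolution 1.0, 2000 genes, 30 components) without the members, hormone or mitochondrial genes, and named from marker lists; the naming rule and resolution were set after the clusters were seen. Class sums of the counts in each library were scaled by TMM over all class sums. Ratios carry exact conditional binomial 95% intervals and shares exact binomial ones, for counting error only; UMIs of 1 library are no replicates. The ratio code was tested on simulated data. Positions come from GENCODE M21 (99.617% of gene IDs matched) and promoters from RefSeq. Every member is named; of the other pathway genes, those at least 2 times different in beta, alpha or endothelial-like cells and the most counted of each group are named, and any others named were chosen after their values were seen. The members and lists were chosen with earlier results of these data known.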

Additional observations from a re-analysis of the deposited data

Results flagged for a closer look

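H2-K1, Irf1 and Cd74 each had HFD to CD ratios on opposite sides of 1 in a pair of cell classes, with counting intervals that excluded 0; the differences between classes were not tested. H2-K1 had a log2 ratio of 0.52 in macrophage-like and −0.10 in alpha cells. Irf1 had 0.35 in alpha and −0.30 in beta cells. Cd74 had 1.99 in delta and −0.23 in beta cells. Its level was at or under that of free RNA in CD delta cells and in the beta cells of both libraries. Without 1 delta cell of each library, those with 10 or more class II UMIs, Cd74 had 26 UMIs in HFD and 23 in CD. Its log2 ratio was then 0.54 (−0.33 to 1.41), whose interval held 0.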

How the results depend on the processing

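No paired analysis was possible because each diet has 1 library, and no library could be left out. Of 280 list and class values under other settings 233 stayed within their interval or within 1.5 times of their count, and 47 moved. In beta cells the class I median was −0.28 with relative log expression scaling and −0.29 with no doublets removed. The interferon-induced median in beta cells was 0.66 at 1500 UMIs per cell (8 members measured) and 0.35 without the cells with 5 or more members; it was 1.09 in PP cells with no UMI minimum and 0.34 in macrophage-like cells at 1500 UMIs (3 members measured). The class II sum was the least stable, and none of its values here had free RNA subtracted. In beta cells it was −0.13 on total counts, 0.13 at a mitochondrial limit of 10%, 0.74 with no doublets removed, −0.65 when thinned, 0.12 with stricter hormone shares and 0.12 without cells with 10 or more class II UMIs. In alpha cells it was 1.07 when thinned, 0.45 with stricter shares and 1.07 without those cells. In delta cells it was 3.73 at the 10% limit, 0.83 with no doublets removed, 1.58 when thinned, 1.57 with stricter shares and 1.18 without those cells. In macrophage-like cells it was 0.086 on total counts, 0.13 with relative log expression, 0.15 scaled without hormone genes, 0.17 at the 10% limit, 0.069 with no doublets removed, 0.25 when thinned and 0.14 with TMM within the class.

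On total counts the members at least 2 times higher than in beta cells were 4 class I, 2 interferon-induced and 3 class II in alpha, 8 class I and 11 interferon-induced in delta (against 59.5% of all genes), 1 class I and 2 interferon-induced in PP, 2 class II in endothelial-like and 6 class I in mesenchymal-like cells, where the shares of all genes were 27.7%, 10.2%, 48.4% and 43.1% in alpha, PP, endothelial-like and mesenchymal-like cells. With free RNA subtracted they were 1 interferon-induced in alpha, 2 class I in delta and 2 class II in endothelial-like cells. In delta cells no class I member (0) was higher when scaled without hormone genes or with classes from markers cell by cell. With no doublets removed 4 class II members were higher in delta and 1 in endothelial-like cells. Beta cells with 3 or more members were 9.54% (HFD) and 11.0% (CD) with all UMIs and 2.02% and 0.81% at 10000. The log2 ratio of H2-K1 changed sign to −0.063 in beta cells on total counts, and to 0.018 and 0.0088 in alpha cells with free RNA subtracted and when thinned, and the medians of all genes moved the same way (to −0.07, 0.13 and 0.05). Without the beta cells with 5 or more members, which were chosen by these same genes, Ifit3 (−0.76) and Ifit3b (−0.36) changed sign. Alternatives that leave out cells with 5 or more members, cells with 10 or more class II UMIs or 1 PP cell, and TMM within a class, were added after the data were seen. The depth limits Nlrc5 and Gbp2 in beta cells and most members in delta, PP and mesenchymal-like cells; the causes of the values that moved were not tested.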

Other observations

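Cells left over from the named classes also carried the members. An unnamed cluster of 37 HFD and 29 CD cells, led by Cd52, Lyz2 and Tyrobp, had log2 ratios of 0.77 for B2m, 1.05 for Bst2 and 1.70 for Rsad2.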
